A study of Homo sapiens with 12 samples.

Results

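Fatty acid synthesis, fatty acid oxidation and lipid storage were followed through 38 genes of MRC5 cells, a line of human embryonic lung fibroblasts. The genes were chosen by symbol from a list of 38 names, and all 38 stood on 1 row each of a table of 57500 genes. They comprise 10 genes of fatty acid synthesis, 6 of uptake and activation, 11 of oxidation, 8 of storage and 3 PPAR receptors. RNA was sequenced from 12 libraries in 4 groups of 3. Prol cells were proliferating. Sen(IR) cells had received X-rays at 20 Gy and become senescent. Sen(IR)+UK5099 cells were irradiated and kept in UK5099, an inhibitor of the mitochondrial pyruvate carrier MPC, and Sen(IR)+CTPI2 cells were irradiated and kept in CTPI2, an inhibitor of the mitochondrial citrate carrier SLC25A1. According to the methods, irradiated cells were collected 10 to 12 days after the X-rays, the inhibitors were added 1 day after them, UK5099 was used at 100 μM and CTPI2 at 15 or 30 μM. Which of the CTPI2 doses was sequenced, and whether Sen(IR) cells received the solvent, is not given in the sources used here. The labels number the libraries without naming a culture or a day, and the legends of the study call its RNA-seq replicates independent experiments or conditions.

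Citrate that leaves mitochondria is split in the cytosol into acetyl-CoA, which acetyl-CoA carboxylase turns into malonyl-CoA and fatty acid synthase builds into palmitate. Elongases and desaturases then shape the chain. Malonyl-CoA also blocks the carnitine palmitoyltransferase that lets acyl-CoA into mitochondria for oxidation, so that a cell does not make and burn fat at once. Fatty acids that are neither burned nor built into membranes are joined to glycerol and kept in lipid droplets, from which lipases release them again. The PPAR receptors are nuclear receptors that bind fatty acids and switch on genes of their uptake, oxidation and storage.

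Library totals ran from 20597736 to 28245693 counts. Of 57500 genes, 16251 passed the filter on low counts, among them all 38 members. Their share of all counts was 0.295 to 0.333% for Prol, 0.417 to 0.427% for Sen(IR), 0.400 to 0.404% under UK5099 and 0.421 to 0.432% under CTPI2. A large part of the rise was ACSL4 alone. It held 5837 to 6491 of 71733 to 85206 member counts in Prol libraries and 23512 to 25618 of 88034 to 96341 in Sen(IR) libraries. Fibroblast markers were present, with COL1A2 at 3304 to 7435 CPM (counts scaled to a common library size) over the 12 libraries. Markers of other cell types were mixed. PTPRC (leukocytes) and PECAM1 (endothelium) had at most 8 counts in any library and CDH1 (epithelium) at most 5, while CD14 had 4 to 118 counts, KDR 6 to 132, KRT8 156 to 258 and KRT18 171 to 1667 in the same lists. Of 6 markers of adipocytes, the cell type that stores most fat, ADIPOQ, PLIN1, CIDEC and LEP had at most 3, 5, 4 and 7 counts in any library, FABP4 had 6 to 151 and LIPE 7 to 67. A level from bulk RNA cannot tell fewer cells of a kind from less RNA per cell.

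Per kilobase of exon, which allows genes to be compared, the group means of the members ran from 0.0159 to 116 CPM. In Sen(IR) the highest was ACSL4 at 116 ± 5.86 CPM per kb (SD, n = 3), followed by ECHS1 at 71.98 ± 1.36 and HADHA at 53.7 ± 1.48. ACSL4 joins long fatty acids to coenzyme A, while ECHS1 and HADHA are enzymes of the β-oxidation spiral. At the low end of Sen(IR) stood CD36 at 0.913 ± 0.0635, DGAT2 at 0.452 ± 0.0757 and ACACB at 0.272 ± 0.0343 CPM per kb. The order was different in Prol, where SCD was highest at 80.4 ± 24.2 CPM per kb, ECHS1 followed at 68.99 ± 3.35, within the SD of SCD, and DGAT2 was lowest at 0.0159 ± 0.02302.

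**Figure D1:**
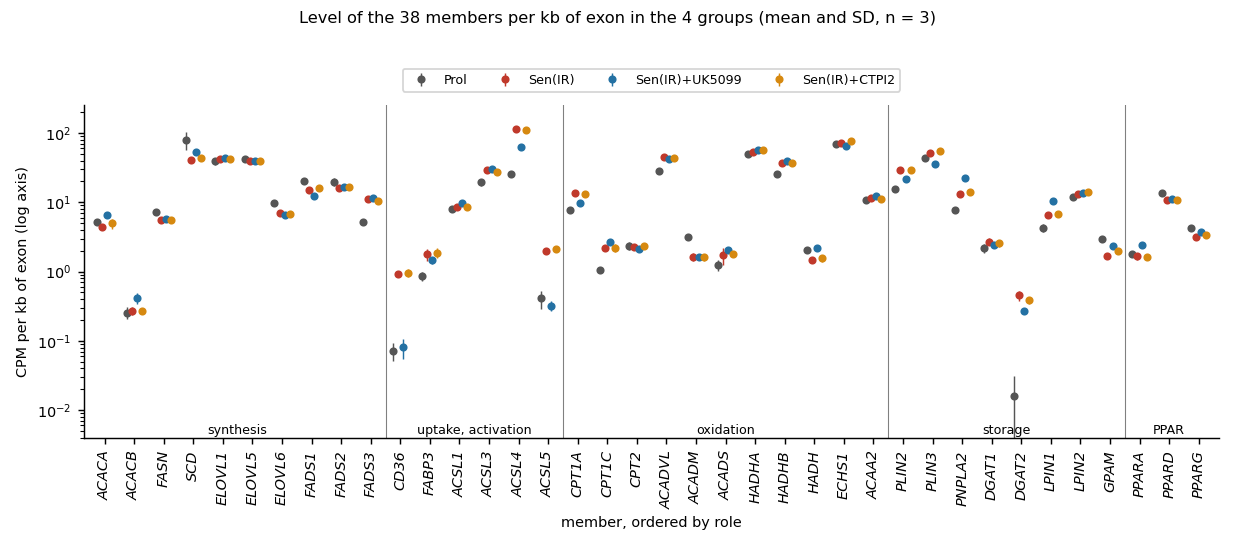
Level of each of the 38 members in the 4 groups, as CPM per kilobase of exon on a log axis (points, mean of 3 libraries; bars, SD), with members ordered by role and grey lines between roles. The bar of DGAT2 in Prol is drawn shorter than its SD of 0.02302 at both ends, and its lower end runs off the axis. CD36, ACSL5 and DGAT2 lie lowest in Prol or with UK5099, and ACSL4 lies above all other members in Sen(IR).

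A gene is called changed here at a Benjamini-Hochberg adjusted p below 0.05 with an absolute log2 fold change above 0.5, from edgeR's quasi-likelihood fit of all 12 libraries and 16251 genes. In Sen(IR) against Prol, 17 of 38 members (44.7%) were called, 14 higher and 3 lower, where 47.2% of all genes tested were called, 24.8% higher and 22.4% lower. The share of members called was thus near that of all genes, and the direction was mostly upward. Another 12 members passed the adjusted p under the fold limit, which makes 29 of 38 against 68.7% of all genes, and 9 did not pass. The median log2 fold change was 0.13 over the members and 0.014 over all genes. With upper-quartile scaling the median of all genes moved to 0.135, so changes of about that size depend on the scaling.

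UK5099 against Sen(IR) gave 12 of 38 members called (31.6%), 6 higher and 6 lower, where 20.8% of all genes were called, 8.76% higher and 12.1% lower. A further 7 passed the adjusted p under the fold limit, making 19 of 38 against 45.4% of all genes, and 19 did not pass. The median log2 fold change was 0.044 over the members and 0.0099 over all genes. Members called lower were CD36, ACSL5, ACSL4, DGAT2, PLIN3 and CPT1A. Members called higher were PNPLA2, LPIN1, ACACB, ACACA, HADH and PPARA. CTPI2 against Sen(IR) gave 0 of 38 members called, where 0.166% of all genes were.

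**Figure D2:**
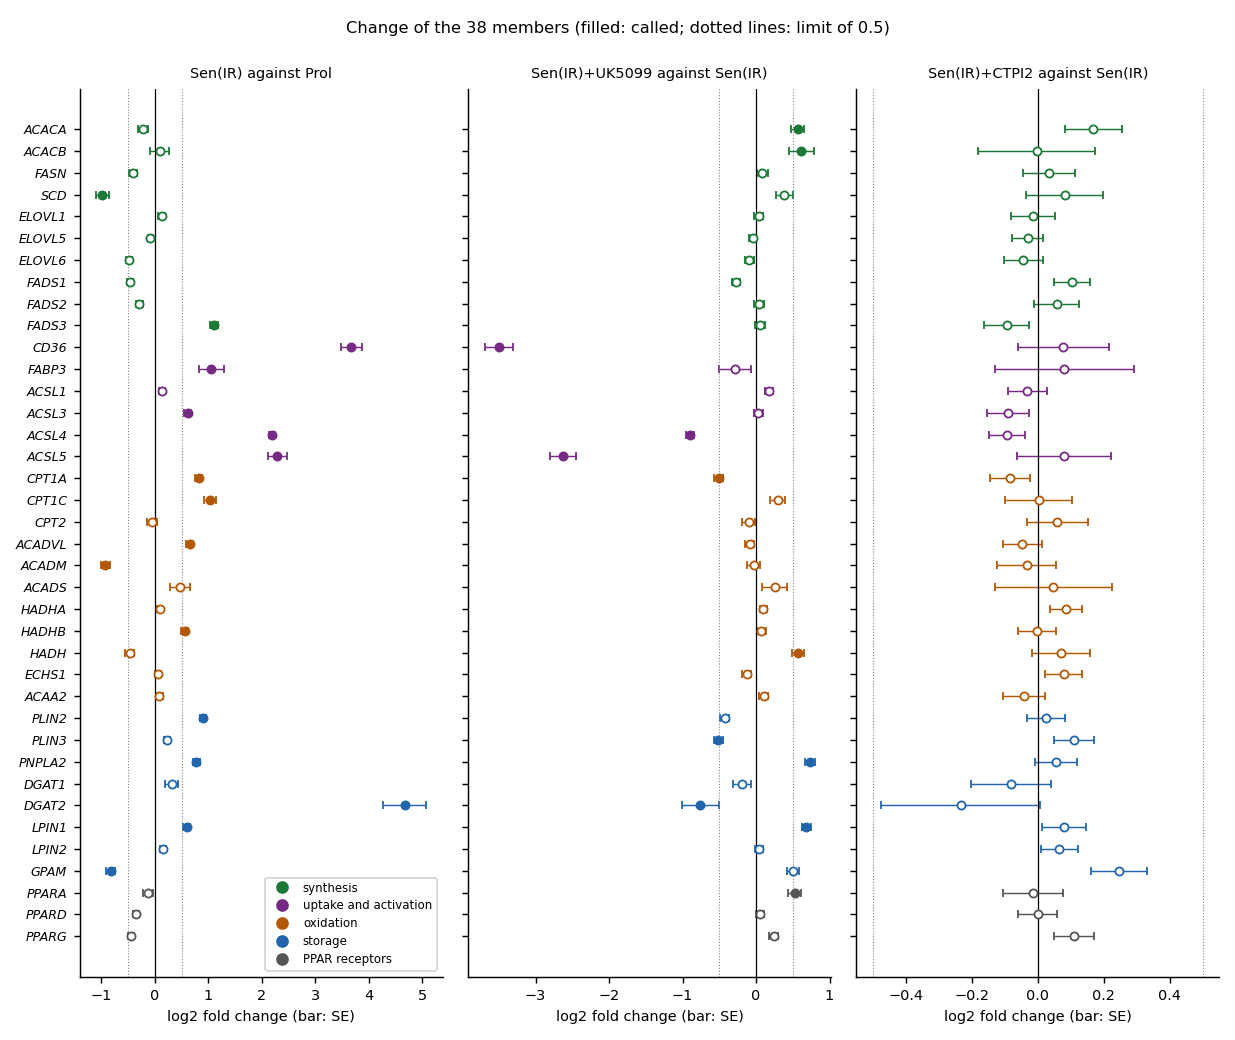
Log2 fold change of the 38 members, coloured by role, in Sen(IR) against Prol, UK5099 against Sen(IR) and CTPI2 against Sen(IR) (points, estimate; bars, SE; filled, called; dotted lines, the limit of 0.5 in either direction; each panel has its own horizontal scale). In the UK5099 panel CD36 and ACSL5 lie at -3.50 and -2.62, and in the CTPI2 panel every member lies between -0.23 and 0.25.

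Fatty acid uptake and activation held the largest changes with UK5099. Of its 6 members, 5 were called higher in Sen(IR), where 24.8% of all genes were. With UK5099, 3 of those 5 were called lower, where 12.1% of all genes were. CD36 (ENSG00000135218, chromosome 7, 80369575 to 80679277, plus strand) is a membrane protein that takes up long-chain fatty acids and oxidised lipoproteins. Its levels were 0.682, 1.03 and 0.631 CPM in Prol, 9.16, 10.5 and 10.2 in Sen(IR), 1.199, 0.741 and 0.697 with UK5099 and 11.3, 9.03 and 11.1 with CTPI2. The Prol and UK5099 libraries lay at or below 1.20 CPM and the other 6 libraries at or above 9.03 CPM, with no overlap. In Sen(IR) the log2 fold change against Prol was 3.67 ± 0.20 (SE, edgeR adjusted p = 1.72e-13), or 12.7-fold. With UK5099 it was -3.50 ± 0.19 (SE, edgeR adjusted p = 1.13e-12) against Sen(IR), an 11.3-fold lower level. Both values rest on the same Sen(IR) libraries.

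ACSL5 (ENSG00000197142, chromosome 10, 112374116 to 112428379, plus strand) joins fatty acids to coenzyme A at mitochondria and endoplasmic reticulum. It was measured at 1.79, 2.15 and 1.15 CPM in Prol, 8.36, 8.81 and 7.45 in Sen(IR), 1.57, 1.26 and 1.16 with UK5099 and 8.98, 8.99 and 8.05 with CTPI2. As for CD36, the Prol and UK5099 libraries overlapped one another and lay below every library of the other groups. The log2 fold change was 2.29 ± 0.18 (SE, edgeR adjusted p = 1.02e-10) in Sen(IR) against Prol and -2.62 ± 0.18 (SE, edgeR adjusted p = 6.87e-11) with UK5099 against Sen(IR). Its promoter is printed because the gene changed most among members with a half-site of nuclear receptors, AGGTCA on either strand, in the window of 250 bases before to 50 after a RefSeq gene start (GRCh38.p14). The 250 bases before the start are given 5′ to 3′ on the strand of the gene, with the half-site in capitals.
ACSL5, chr10:112375018-112375267, plus strand: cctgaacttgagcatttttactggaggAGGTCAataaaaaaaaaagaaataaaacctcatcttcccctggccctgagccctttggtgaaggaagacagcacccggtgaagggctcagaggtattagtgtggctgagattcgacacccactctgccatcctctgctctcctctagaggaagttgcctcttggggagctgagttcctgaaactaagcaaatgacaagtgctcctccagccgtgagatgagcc
The site ends 217 bases before the start at 112375268. The window of the other RefSeq start of ACSL5, at 112376205, held no half-site. Half-sites stood in some window of 5 members, ACACA, ACSL5, ELOVL6, PNPLA2 and PPARG, though ACACA and PPARG also have windows without one. ACSL5 and PNPLA2 were called in both Sen(IR) and UK5099 comparisons, ACACA with UK5099 only and ELOVL6 and PPARG in neither. Of all genes, 47.2% were called in Sen(IR) and 20.8% with UK5099. The half-site stood in 11.3% of the windows of members and 13.8% of all windows, and its part in the calls was not tested.

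ACSL4 (ENSG00000068366, chromosome X, 109624244 to 109733403, minus strand), which prefers arachidonic acid and other polyunsaturated chains, had the highest level per kb of this role. Its levels were 249, 269.8 and 241 CPM in Prol, 1139, 1114 and 1225 in Sen(IR), 624, 612 and 623 with UK5099 and 1051, 1040.0 and 1167 with CTPI2. The Sen(IR) and CTPI2 libraries overlapped, and the UK5099 libraries lay between them and Prol, apart from both. The log2 fold change was 2.19 ± 0.057 (SE, edgeR adjusted p = 6.11e-19) in Sen(IR) and -0.90 ± 0.055 (SE, edgeR adjusted p = 7.97e-12) with UK5099. ACSL3, which activates fatty acids at forming lipid droplets, rose in Sen(IR) by 0.62 ± 0.064 (SE, edgeR adjusted p = 1.39e-08), from 256 to 320 CPM in Prol to 418 to 440 CPM, and lay at 430 to 443 CPM with UK5099. FABP3, a carrier protein of fatty acids in the cytosol, rose by 1.06 ± 0.23 (SE, edgeR adjusted p = 0.000357), with 0.987 to 3.03 CPM in all libraries. ACSL1, the sixth member, lay at 50.01 to 58.5 CPM in Prol and Sen(IR) and 59.8 to 66.2 CPM with UK5099, which passed the adjusted p under the fold limit with 0.17 ± 0.059 (SE, edgeR adjusted p = 0.0195).

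Fatty acid synthesis had 2 of 10 members called in Sen(IR), FADS3 higher and SCD lower, and 2 of 10 with UK5099, ACACA and ACACB, both higher. Over all genes the shares called were 47.2% and 20.8%. SCD (ENSG00000099194, chromosome 10, 100347233 to 100364826, plus strand) puts the first double bond into stearate and palmitate. Its levels were 334, 568 and 365 CPM in Prol, 214, 218 and 210.5 in Sen(IR), 276, 274 and 287 with UK5099 and 212, 235 and 233 with CTPI2. Library Prol 2 lay far above the other Prol libraries, and every Prol library lay above every other library. SCD fell in Sen(IR) with a log2 fold change of -0.98 ± 0.12 (SE, edgeR adjusted p = 1.39e-07), and of -0.70 without Prol 2. With UK5099 it was 0.38 ± 0.12 (SE, edgeR adjusted p = 0.0103), under the fold limit, with the 3 UK5099 libraries above the 3 Sen(IR) libraries.

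FADS3 (ENSG00000221968, chromosome 11, 61873519 to 61892051, minus strand) is a desaturase that acts on sphingoid bases. It stood at 33.6, 28.8 and 35.4 CPM in Prol, 72.01, 73.5 and 65.6 in Sen(IR), 71.6, 73.99 and 74.4 with UK5099 and 70.4, 64.1 and 63.3 with CTPI2. Its Prol libraries lay below every irradiated library, and the Sen(IR) libraries overlapped those of both inhibitors. The log2 fold change was 1.11 ± 0.072 (SE, edgeR adjusted p = 4.96e-12) in Sen(IR) against Prol. FADS1 and FADS2, the desaturases of polyunsaturated fatty acids, lie beside it on chromosome 11, with 598 bases between their closest starts, and both lay lower in Sen(IR) under the fold limit, at -0.46 ± 0.054 (SE, edgeR adjusted p = 9.98e-08) and -0.29 ± 0.067 (SE, edgeR adjusted p = 0.00062). FADS1 was lower again with UK5099, at -0.27 ± 0.054 (SE, edgeR adjusted p = 0.000248), with 125 to 128 CPM against 151 to 155 CPM. FADS1 and FADS2 share 5.57 and 5.11% of their exon bases with each other or with further genes, and reads from those bases cannot be assigned to 1 gene without strand.

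The promoters of SCD and FADS3 are printed because both genes hold 2 CCAAT boxes, the site of the factor NF-Y, before the start, while SCD fell and FADS3 rose in Sen(IR). Both are given 5′ to 3′ on the strand of the gene up to the base before the RefSeq start (GRCh38.p14), with CCAAT or its reverse complement in capitals.
SCD, chr10:100346983-100347232, plus strand: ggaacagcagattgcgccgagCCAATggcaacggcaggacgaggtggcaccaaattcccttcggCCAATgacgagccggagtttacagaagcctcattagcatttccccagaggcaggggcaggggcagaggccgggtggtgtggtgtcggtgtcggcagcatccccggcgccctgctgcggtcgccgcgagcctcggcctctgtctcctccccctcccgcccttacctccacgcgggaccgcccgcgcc
FADS3, chr11:61891546-61891795, minus strand: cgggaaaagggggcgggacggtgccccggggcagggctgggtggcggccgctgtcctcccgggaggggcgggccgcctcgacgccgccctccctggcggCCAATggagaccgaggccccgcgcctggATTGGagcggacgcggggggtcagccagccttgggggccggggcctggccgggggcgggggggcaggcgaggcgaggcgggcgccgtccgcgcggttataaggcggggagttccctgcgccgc
The boxes end 224 and 181 bases before the start in SCD and 146 and 118 bases before it in FADS3. A window of ACACA, ACACB, ELOVL5 and CPT1C each also held 2 boxes, and CCAAT stood in 34.6% of all windows. Whether any of these boxes is bound was not tested.

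The carboxylases that make malonyl-CoA rose with UK5099. ACACB (ENSG00000076555, chromosome 12, 109116587 to 109268226, plus strand), the form at the outer mitochondrial membrane, had 4.26, 3.95 and 2.93 CPM in Prol, 3.82, 4.499 and 3.53 in Sen(IR), 7.32, 5.15 and 5.77 with UK5099 and 3.59, 4.25 and 3.98 with CTPI2. Its UK5099 libraries lay above all others, and the other 3 groups overlapped. The log2 fold change with UK5099 was 0.62 ± 0.17 (SE, edgeR adjusted p = 0.00447), and 0.47 and thus under the fold limit without UK5099 replicate 1. ACACA, the cytosolic form, had 80.3 to 89.2 CPM with UK5099 and 54.2 to 59.1 CPM in Sen(IR), a log2 fold change of 0.57 ± 0.085 (SE, edgeR adjusted p = 1.01e-05). In Sen(IR) against Prol, ACACA was at -0.22 ± 0.086 (SE, edgeR adjusted p = 0.0265), under the fold limit, and ACACB did not pass the test.

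FASN, the fatty acid synthase itself, was lower in Sen(IR) under the fold limit, at -0.41 ± 0.078 (SE, edgeR adjusted p = 7.65e-05), with the Prol libraries from 61.6 to 71.0 CPM and the Sen(IR) libraries from 49.8 to 53.1. It did not pass with UK5099, at 49.6 to 57.1 CPM. ELOVL6, which lengthens palmitate to stearate, stood between 70.6 and 72.2 CPM in Prol and between 49.7 and 52.7 in Sen(IR). Its log2 fold change of -0.49 ± 0.057 (SE, edgeR adjusted p = 9.01e-08) lay just under the limit, and passed it without Sen(IR) replicate 1, at -0.52. ELOVL1 and ELOVL5, elongases of long saturated and of polyunsaturated chains, passed in no comparison.

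Fatty acid oxidation had 5 of 11 members called in Sen(IR), CPT1C, CPT1A, ACADVL and HADHB higher and ACADM lower, and 2 of 11 with UK5099, HADH higher and CPT1A lower. These were 45.5% and 18.2%, near the 47.2% and 20.8% of all genes. CPT1A (ENSG00000110090, chromosome 11, 68754620 to 68844410, minus strand) makes acylcarnitine at the outer mitochondrial membrane and is the controlled entry step of oxidation. Its levels were 52.7, 48.2 and 53.04 CPM in Prol, 96.05, 88.6 and 87.7 in Sen(IR), 64.9, 60.3 and 66.5 with UK5099 and 80.8, 87.2 and 88.8 with CTPI2. The UK5099 libraries lay between Prol and Sen(IR) without overlap. CPT1A rose in Sen(IR), at 0.82 ± 0.062 (SE, edgeR adjusted p = 6.11e-11), and fell with UK5099, at -0.51 ± 0.061 (SE, edgeR adjusted p = 4.51e-07). The second value lay close to the fold limit and went under it with upper-quartile scaling (-0.49), without Sen(IR) replicate 1 (-0.46) and without UK5099 replicate 2 (-0.47).

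CPT1C (ENSG00000169169, chromosome 19, 49690898 to 49713731, plus strand), a form best known from neurons that hardly transfers acyl groups, was measured at 6.14, 5.88 and 6.797 CPM in Prol, 12.8, 13.4 and 12.2 in Sen(IR), 15.3, 16.3 and 15.6 with UK5099 and 14.8, 12.3 and 11.5 with CTPI2. Prol lay below all other libraries, with a log2 fold change of 1.03 ± 0.11 (SE, edgeR adjusted p = 2.08e-08) in Sen(IR). The UK5099 libraries lay above the Sen(IR) libraries, at 0.30 ± 0.099 (SE, edgeR adjusted p = 0.0182), under the fold limit. CPT2, which returns acyl groups to coenzyme A inside mitochondria, passed in no comparison and lay at 19.5 to 26.9 CPM in all libraries.

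The acyl-CoA dehydrogenases, which take the first step of each β-oxidation round, differed in direction. ACADM (ENSG00000117054, chromosome 1, 75724431 to 75787575, plus strand), for medium chains, had 41.5, 41.6 and 45.2 CPM in Prol, 19.6, 23.2 and 25.04 in Sen(IR), 21.3, 22.2 and 22.7 with UK5099 and 19.6, 22.6 and 23.8 with CTPI2. Every Prol library was above every irradiated library, and the irradiated groups overlapped, with a log2 fold change of -0.92 ± 0.086 (SE, edgeR adjusted p = 2.36e-09) in Sen(IR). ACADVL, for very long chains, rose by 0.65 ± 0.06 (SE, edgeR adjusted p = 2.3e-09), from 123 to 147 CPM to 214 to 218 CPM. ACADS, for short chains, lay at 2.64 to 5.96 CPM in all libraries and was under the fold limit in Sen(IR), at 0.47 ± 0.18 (SE, edgeR adjusted p = 0.028). It passed the limit without Prol replicate 2 (0.58), Sen(IR) replicate 2 (0.60) or Sen(IR) replicate 3 (0.56). ACADM shares 10.97% of its exon bases with DLSTP1 or RABGGTB.

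HADHA and HADHB are the subunits of the mitochondrial trifunctional protein and lie head to head on chromosome 2, with 306 bases between their RefSeq starts. HADHB lay between 99.7 and 116 CPM in Prol and between 159 and 162 CPM in Sen(IR), a log2 fold change of 0.56 ± 0.058 (SE, edgeR adjusted p = 1.71e-08), and 0.498, just under the limit, without Prol replicate 1. HADHA lay between 212 and 222 CPM in Prol, between 225 and 237 CPM in Sen(IR), and did not pass (log2 95% interval -0.0041 to 0.19, edgeR adjusted p = 0.0826). The difference between the partners was not tested. With UK5099 neither passed.

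HADH (ENSG00000138796, chromosome 4, 107989714 to 108035241, plus strand), the dehydrogenase of the third step for short and medium chains, was at 24.9, 26.6 and 27.8 CPM in Prol, 19.7, 18.1 and 19.4 in Sen(IR), 28.8, 28.1 and 28.03 with UK5099 and 22.3, 20.6 and 17.2 with CTPI2. Its Sen(IR) libraries lay below those of Prol and of UK5099. It was called with UK5099, at 0.57 ± 0.085 (SE, edgeR adjusted p = 9.13e-06), and was under the fold limit in Sen(IR), at -0.47 ± 0.085 (SE, edgeR adjusted p = 4.22e-05), and at -0.51, past it, without Prol replicate 1. ECHS1, the hydratase of the second step, and ACAA2, the thiolase of the last step, did not pass in Sen(IR) or with UK5099.

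Lipid storage had 5 of 8 members called in Sen(IR), DGAT2, PLIN2, PNPLA2 and LPIN1 higher and GPAM lower, and 4 of 8 with UK5099, PNPLA2 and LPIN1 higher and DGAT2 and PLIN3 lower. Among all genes 47.2% and 20.8% were called. PNPLA2 (ENSG00000177666, chromosome 11, 818914 to 825573, plus strand) is the adipose triglyceride lipase, which cuts the first fatty acid from stored triglyceride. Its levels were 29.7, 29.1 and 31.1 CPM in Prol, 53.1, 50.5 and 50.2 in Sen(IR), 85.4, 86.2 and 84.4 with UK5099 and 57.2, 54.4 and 48.3 with CTPI2. It rose from Prol to Sen(IR) by 0.77 ± 0.065 (SE, edgeR adjusted p = 4.72e-10) and from Sen(IR) to UK5099 by 0.73 ± 0.062 (SE, edgeR adjusted p = 1.77e-09), so that Prol, Sen(IR) and UK5099 followed one another without overlap. PNPLA2 shares 10.47% of its exon bases with an overlapping gene.

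The promoter of PNPLA2 is printed because its window was 1 of 2 among the members, with that of ACSL1, to hold TCACCCCAC, a sterol regulatory element as bound by SREBP. It is given 5′ to 3′ on the strand of the gene (GRCh38.p14) with the reverse complement of the element in capitals.
PNPLA2, chr11:818664-818913, plus strand: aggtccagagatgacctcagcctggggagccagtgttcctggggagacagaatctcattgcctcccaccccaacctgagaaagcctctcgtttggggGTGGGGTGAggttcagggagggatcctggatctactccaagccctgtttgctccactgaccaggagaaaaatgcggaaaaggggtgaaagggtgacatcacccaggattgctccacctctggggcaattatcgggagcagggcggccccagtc
The element ends 144 bases before the start. The letters of an element in a window are a description and not a site shown to be bound.

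LPIN1, a phosphatidate phosphatase that makes diacylglycerol, moved the same way as PNPLA2. Its levels were 47.8, 58.4 and 46.5 CPM in Prol, 78.8, 75.2 and 76.3 in Sen(IR), 124, 119 and 127 with UK5099 and 80.3, 82.2 and 80.9 with CTPI2. Prol, Sen(IR) and UK5099 again followed one another without overlap, at 0.59 ± 0.068 (SE, edgeR adjusted p = 7.15e-08) in Sen(IR) and 0.69 ± 0.066 (SE, edgeR adjusted p = 1.59e-08) with UK5099. LPIN2, its relative, lay at 80.9 to 107 CPM in all libraries and was under the fold limit in Sen(IR), at 0.16 ± 0.056 (SE, edgeR adjusted p = 0.0146).

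DGAT2 (ENSG00000062282, chromosome 11, 75759512 to 75801535, plus strand), which adds the last fatty acid to form triglyceride, was nearly absent in Prol. Its levels were 0.0426, 0 and 0.334 CPM in Prol, 3.47, 3.03 and 4.21 in Sen(IR), 2.07, 2.15 and 2.09 with UK5099 and 2.804, 3.42 and 2.85 with CTPI2, with 10 counts over the 3 Prol libraries, 9 of them in Prol replicate 3. The ratio of summed counts of Sen(IR) to Prol was 26.2 (exact 95% interval 14.0 to 55.5, for counting error only), and the edgeR log2 fold change of 4.67 ± 0.41 (SE, edgeR adjusted p = 7.7e-10) depends on the prior count at such levels. DGAT2 fell with UK5099, at -0.76 ± 0.25 (SE, edgeR adjusted p = 0.0166), with the 3 UK5099 libraries below the 3 Sen(IR) libraries. Without Sen(IR) replicate 3 this call was lost, at -0.63 (edgeR adjusted p = 0.0892). DGAT1, the second enzyme of that step, lay at 7.5 to 12.4 CPM in all libraries and was under the fold limit in Sen(IR), at 0.32 ± 0.12 (SE, edgeR adjusted p = 0.0271).

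PLIN2 and PLIN3 coat lipid droplets. PLIN2, whose level is known to follow the amount of stored lipid, was at 80.6, 70 and 82.9 CPM in Prol, 147, 141 and 146 in Sen(IR), 108, 111 and 105 with UK5099 and 151, 146 and 145 with CTPI2. It rose in Sen(IR), at 0.90 ± 0.058 (SE, edgeR adjusted p = 5.01e-12), and the UK5099 libraries lay between Prol and Sen(IR), at -0.43 ± 0.057 (SE, edgeR adjusted p = 2.24e-06) against Sen(IR), under the fold limit. PLIN3 (ENSG00000105355, chromosome 19, 4838341 to 4867694, minus strand) was at 114, 112 and 133 CPM in Prol, 142, 140.3 and 137 in Sen(IR), 99.1, 102 and 92.5 with UK5099 and 150.1, 156 and 147 with CTPI2. Its UK5099 libraries lay below all others, with a called log2 fold change of -0.52 ± 0.061 (SE, edgeR adjusted p = 4.3e-07) that went under the limit with upper-quartile scaling (-0.50, just under it) and without UK5099 replicate 3 (-0.48). In Sen(IR) against Prol PLIN3 was at 0.23 ± 0.061 (SE, edgeR adjusted p = 0.00233), under the fold limit. PLIN3 shares 18.33% of its exon bases with an overlapping gene.

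GPAM (ENSG00000119927, chromosome 10, 112149865 to 112215377, minus strand), the mitochondrial enzyme that starts glycerolipid synthesis, had 29.5, 28.8 and 27.8 CPM in Prol, 16.7, 17.1 and 14.8 in Sen(IR), 23.04, 21.6 and 24.2 with UK5099 and 18.2, 18.5 and 21.1 with CTPI2. Prol lay highest and Sen(IR) lowest, without overlap, and UK5099 lay between them. GPAM fell in Sen(IR), at -0.82 ± 0.082 (SE, edgeR adjusted p = 7.98e-09). With UK5099 its log2 fold change of 0.499 ± 0.083 (SE, edgeR adjusted p = 3.65e-05) lay just under the limit, and passed it with upper-quartile scaling (0.52), without Sen(IR) replicate 1 (0.52) or 2 (0.54) and without UK5099 replicate 2 (0.54).

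Of the 3 PPAR receptors, PPARA was called with UK5099, where 20.8% of all genes were. None was called in Sen(IR), where 47.2% of all genes were. PPARA (ENSG00000186951, chromosome 22, 46150521 to 46243755, plus strand), the receptor that drives oxidation genes in liver, was at 25.01, 24.2 and 22.4 CPM in Prol, 24.9, 20.03 and 20.6 in Sen(IR), 32.3, 29.5 and 32.7 with UK5099 and 19.6, 21.3 and 24.01 with CTPI2. The UK5099 libraries lay above all others, and the other groups overlapped. Its log2 fold change with UK5099 was 0.53 ± 0.089 (SE, edgeR adjusted p = 4.77e-05), and went under the limit without Sen(IR) replicate 2 (0.47), Sen(IR) replicate 3 (0.49) or UK5099 replicate 3 (0.498). PPARD, found in most tissues, and PPARG, the receptor of fat cells, were lower in Sen(IR) under the fold limit, at -0.35 ± 0.058 (SE, edgeR adjusted p = 1.43e-05) and -0.45 ± 0.06 (SE, edgeR adjusted p = 7.66e-07). With UK5099 PPARG was at 0.24 ± 0.06 (SE, edgeR adjusted p = 0.00235), also under the limit.

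**Figure D3:**
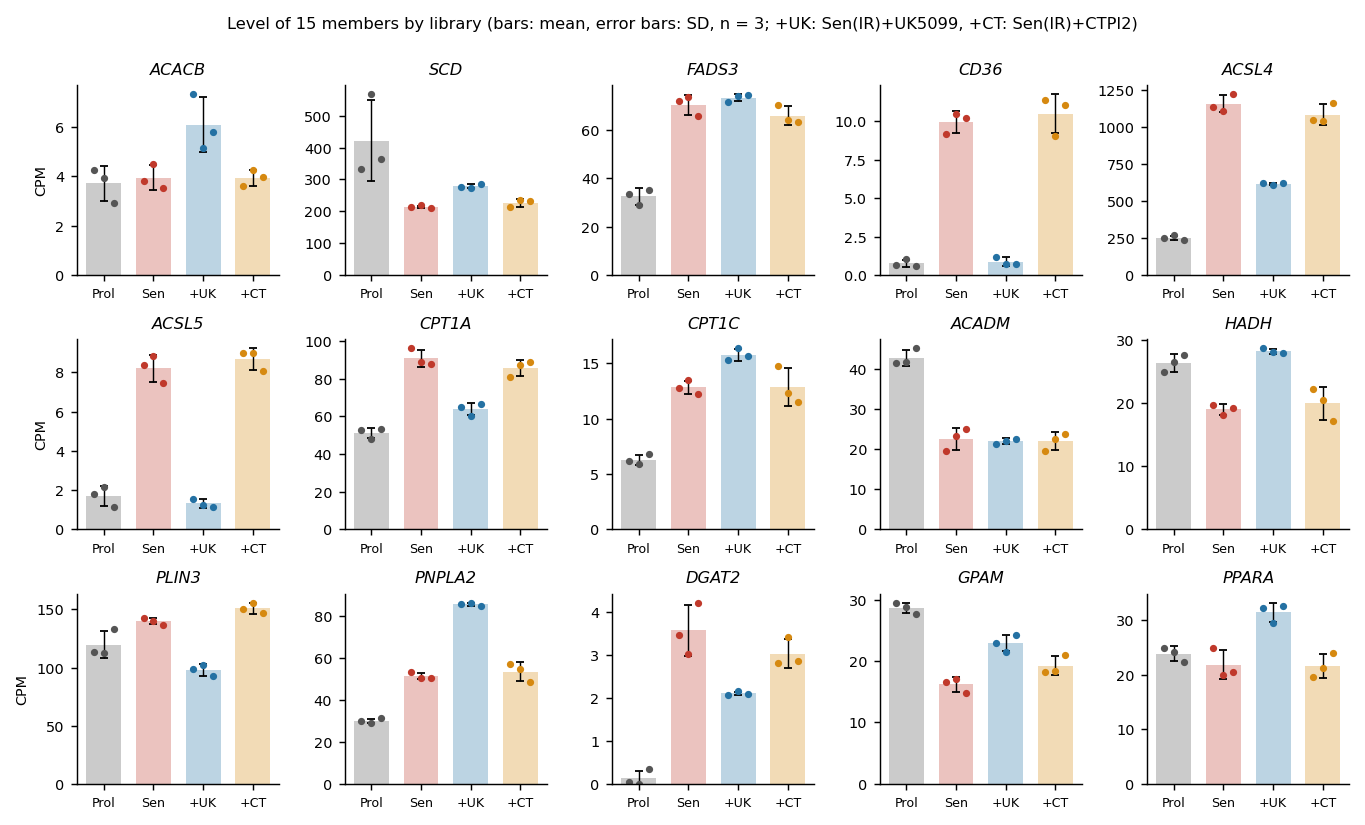
CPM of 15 members in each of the 12 libraries (points, libraries; bars, mean; error bars, SD, n = 3; every vertical axis starts at 0 and has its own scale), for the members with the largest called change of their role and direction and those called in opposite directions in Sen(IR) and with UK5099. The CD36 and ACSL5 panels show Prol and UK5099 low and Sen(IR) and CTPI2 high, and the PNPLA2 panel shows UK5099 highest.

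Called in opposite directions in Sen(IR) against Prol and in UK5099 against Sen(IR) were 5 members, CD36, ACSL5, ACSL4, CPT1A and DGAT2, all higher in Sen(IR) and lower with UK5099. PNPLA2 and LPIN1 were called higher in both. How many of all genes followed either of these patterns was not counted. Taken singly, 24.8% of all genes were called higher in Sen(IR), and with UK5099 8.76% higher and 12.1% lower. The comparisons share the Sen(IR) libraries, so that a chance high or low level there moves both values of a gene in opposite directions.

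CTPI2 was the second inhibitor. Against Sen(IR), edgeR and DESeq2 each called 0 of 38 members. At an unadjusted p below 0.05, 1 member, GPAM, stood apart, at 0.25 ± 0.085 (SE, edgeR adjusted p = 0.39), where 7.27% of all genes lay below that p. The log2 fold changes ran from -0.23 (DGAT2) to 0.25 (GPAM), with a median of 0.028 over the members and 0.0032 over all genes. For 36 of the 38 members the 95% interval of the log2 fold change lay within the limit of 0.5 in either direction. CD36 with CTPI2 had an interval of -0.21 to 0.36, ACSL5 of -0.22 to 0.38, ACSL4 of -0.21 to 0.019 and PNPLA2 of -0.076 to 0.19. The exceptions were FABP3, with an interval of -0.35 to 0.52, and DGAT2, with -0.74 to 0.27.

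UK5099 and CTPI2 were also compared with each other, at doses that differ. Of 38 members, 8 (21.1%) were called, 4 higher and 4 lower with UK5099, where 19.9% of all genes were called, 8.2% higher and 11.7% lower. Another 10 passed the adjusted p under the fold limit, making 18 against 44.5% of all genes. Lower with UK5099 than with CTPI2 were CD36 at -3.58 ± 0.19 (SE, edgeR adjusted p = 7.47e-13), ACSL5 at -2.70 ± 0.18 (SE, edgeR adjusted p = 4.11e-11), ACSL4 at -0.81 ± 0.055 (SE, edgeR adjusted p = 6.34e-11) and PLIN3 at -0.62 ± 0.061 (SE, edgeR adjusted p = 2.52e-08). PNPLA2 was higher, at 0.68 ± 0.061 (SE, edgeR adjusted p = 6.35e-09), as were LPIN1 at 0.61 ± 0.065 (SE, edgeR adjusted p = 1.14e-07), ACACB at 0.62 ± 0.17 (SE, edgeR adjusted p = 0.00407) and PPARA at 0.54 ± 0.089 (SE, edgeR adjusted p = 3.45e-05). ACACB lost this call without UK5099 replicate 1 (0.47) and PPARA without CTPI2 replicate 1 (0.47). HADH was just under the limit, at 0.498 ± 0.084 (SE, edgeR adjusted p = 4.39e-05), and passed it without CTPI2 replicate 1 (0.58) or 2 (0.52) and without UK5099 replicate 2 (0.503) or 3 (0.51). ACACA, at 0.40 ± 0.084 (SE, edgeR adjusted p = 0.000525), passed it without CTPI2 replicate 3 (0.53).

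Promoter windows were found by symbol for 35 of the 38 members, 62 windows in all, since a gene can have several starts, and windows of 1 gene can overlap. FASN, DGAT1 and DGAT2 were not matched. On either strand, CCAAT stood in 18 of 62 windows (29.0%), against 34.6% of all 35116 windows. The E-box CACGTG stood in 3 (4.84%), those of ELOVL5, LPIN2 and PLIN2, against 7.26%. AGGTCA stood in 7 (11.3%) against 13.8%, and TCACCCCAC in 2 (3.23%) against 0.43%. A direct repeat of the half-site with 1 base between the copies, the form bound by PPAR, stood in 0 of 62 windows against 0.0228% of all windows. That repeat overlaps the half-site by its construction. Absence of these letters from a window says nothing about the factor.

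Beyond the members, 118 other genes of these pathways were listed, and 99 of them passed the filter. In Sen(IR), 53 of 99 (53.5%) were called, 37 higher and 16 lower, near the 47.2% of all genes (24.8% higher and 22.4% lower). With UK5099, 20 of 99 (20.2%) were called, 12 higher and 8 lower, a share near the 20.8% of all genes. With CTPI2 edgeR and DESeq2 each called 0, where edgeR called 0.166% of all genes. At an unadjusted p below 0.05 stood 3 of 99, where 7.27% of all genes lay below that p. UK5099 against CTPI2 gave 19 (19.2%), 12 higher and 7 lower, near the 19.9% of all genes. ACLY, the ATP-citrate lyase that makes cytosolic acetyl-CoA from citrate, was under the fold limit, at 0.14 ± 0.047 (SE, edgeR adjusted p = 0.0142) in Sen(IR) and -0.26 ± 0.047 (SE, edgeR adjusted p = 9.2e-05) with UK5099. Its libraries lay between 345 and 362 CPM in Prol, 383 and 393 in Sen(IR), and 324 and 326 under UK5099.

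In synthesis, 1 of 17 other genes (5.88%) was called with UK5099, where 20.8% of all genes were. ELOVL2, which lengthens polyunsaturated chains towards docosahexaenoic acid, was at 45.7, 48.3 and 47.4 CPM in Prol, 52.4, 62.9 and 56.1 in Sen(IR), 8.97, 9.23 and 9.099 with UK5099 and 51.1, 56.5 and 53.4 with CTPI2. Its UK5099 libraries lay far below all others, with a log2 fold change of -2.65 ± 0.078 (SE, edgeR adjusted p = 1.83e-17), or 6.27-fold lower. ELOVL3, which lengthens saturated chains, had 0 counts in the Prol libraries and 30 counts over the Sen(IR) libraries, at least 3.78-fold higher against 3 counts per Prol library. Among regulators, 2 of 17 (11.8%) were called with UK5099, against the same 20.8% of all genes. PPARGC1A, the coactivator PGC-1α, was at 0.8096, 1.201 and 1.003 CPM in Prol, 1.73, 1.99 and 1.18 in Sen(IR), 0.6204, 0.556 and 0.813 with UK5099 and 1.31, 1.53 and 1.77 with CTPI2 and was called lower, at -1.30 ± 0.30 (SE, edgeR adjusted p = 0.00108). SREBF2, which drives sterol synthesis genes, was at 0.503 ± 0.062 (SE, edgeR adjusted p = 7.19e-07), at the edge of the limit, and at 0.497 by DESeq2, 0.497 with RLE scaling, 0.48 without Sen(IR) replicate 3 and 0.47 without UK5099 replicate 1. SREBF1, its relative for fatty acid synthesis genes, did not pass with UK5099 and was at -0.49 ± 0.11 (SE, edgeR adjusted p = 0.00051) in Sen(IR), under the limit. SREBF1 passed it without Prol replicate 1 (-0.58) or 3 (-0.56) and without Sen(IR) replicate 1 (-0.56) or 3 (-0.50, just past it). INSIG2, which holds SREBP back in the endoplasmic reticulum, had the largest called change of this role in Sen(IR), at 1.10 ± 0.076 (SE, edgeR adjusted p = 1.49e-11).

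In uptake and activation, 4 of 16 other genes (25%) were called with UK5099, all higher, where 20.8% of all genes were called, 8.76% higher. FABP4, the fatty acid carrier of adipocytes, was at 0.597, 0.257 and 0.631 CPM in Prol, 0.756, 0.995 and 1.27 in Sen(IR), 4.38, 5.59 and 3.99 with UK5099 and 1.53, 1.44 and 1.47 with CTPI2. Its UK5099 libraries lay above all others, at 2.21 ± 0.25 (SE, edgeR adjusted p = 1.49e-07). Of the other 5 adipocyte markers, ADIPOQ, PLIN1, CIDEC and LEP stayed at 7 counts or fewer in every library, and LIPE, at 7 to 67 counts, was not called with UK5099. SLC27A3, an acyl-CoA synthetase, rose by 1.06 ± 0.14 (SE, edgeR adjusted p = 2.24e-06) and ACOT13, an acyl-CoA thioesterase, by 0.56 ± 0.07 (SE, edgeR adjusted p = 8.38e-07). SLC27A6, a fatty acid transport protein, had the largest called change of this role in Sen(IR), at 3.35 ± 0.23 (SE, edgeR adjusted p = 1.14e-11). Genes listed under uptake and activation were thus called in both directions with UK5099, the members CD36, ACSL4 and ACSL5 lower and FABP4, SLC27A3 and ACOT13 among those higher. SLC27A6 was not called with UK5099.

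In oxidation, 5 of 28 other genes (17.9%) were called with UK5099, 3 higher and 2 lower, near the 20.8% of all genes. EHHADH, the bifunctional enzyme of peroxisomal oxidation, rose by 0.71 ± 0.10 (SE, edgeR adjusted p = 4.49e-06) and ETFDH, which passes electrons from acyl-CoA dehydrogenases to ubiquinone, by 0.60 ± 0.072 (SE, edgeR adjusted p = 4.75e-07). ACAD11, an acyl-CoA dehydrogenase, was lower, at -0.60 ± 0.18 (SE, edgeR adjusted p = 0.00969). Its call was lost without UK5099 replicate 2 (-0.43, edgeR adjusted p = 0.071), and it shares 75.46% of its exon bases with neighbouring genes, so that its value is uncertain. ABCD2, a peroxisomal importer of fatty acids, had 2 counts over the Prol libraries and 53 over the Sen(IR) libraries, a ratio of 30.5 (exact 95% interval 8.04 to 258, for counting error only).

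In storage, 8 of 21 other genes (38.1%) were called with UK5099, 4 higher and 4 lower, where 20.8% of all genes were called. G0S2, the inhibitor protein of the lipase PNPLA2, was at 1.11, 1.16 and 1.34 CPM in Prol, 4.93, 5.73 and 6.47 in Sen(IR), 0.496, 0.926 and 0.6195 with UK5099 and 3.94, 4.17 and 3.504 with CTPI2. The CTPI2 libraries also lay below the Sen(IR) libraries without overlap, though G0S2 was not called with CTPI2. It rose in Sen(IR), at 2.24 ± 0.20 (SE, edgeR adjusted p = 1.24e-09), and fell with UK5099, at -3.04 ± 0.22 (SE, edgeR adjusted p = 1.2e-10), where PNPLA2 itself was highest. AGPAT5, an acyltransferase of phosphatidic acid synthesis, was called lower, at -0.88 ± 0.10 (SE, edgeR adjusted p = 2.12e-07), and PNPLA3, a lipid droplet protein related to PNPLA2, rose by 0.73 ± 0.16 (SE, edgeR adjusted p = 0.000744). LIPE, the hormone-sensitive lipase, had the largest called change of this role in Sen(IR) against Prol, at -2.29 ± 0.32 (SE, edgeR adjusted p = 1.47e-06).

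A list of 15 known PPAR target genes outside the 38 members, some of them also in the pathway list, had 10 that passed the filter. In Sen(IR) 7 of 10 were called, 6 higher and 1 lower, where 47.2% of all genes were called. With UK5099 5 were called, 2 higher and 3 lower, against 20.8% of all genes, and so were 5 between the inhibitors, 2 higher and 3 lower with UK5099, against 19.9% of all genes. With CTPI2 edgeR called 0, against 0.166% of all genes, with 1 of 10 at an unadjusted p below 0.05, against 7.27% of all genes. PDK4, the kinase that shuts off pyruvate dehydrogenase, was at 0.213, 0.729 and 0.223 CPM in Prol, 10.8, 10.1 and 9.897 in Sen(IR), 6.95, 9.04 and 7.28 with UK5099 and 13.01, 14.02 and 10.9 with CTPI2 and rose in Sen(IR) by 4.74 ± 0.25 (SE, edgeR adjusted p = 9.52e-14). It was under the limit with UK5099, at -0.40 ± 0.15 (SE, edgeR adjusted p = 0.0319). The called genes with the largest changes with UK5099 were FABP4, above, HILPDA, a lipid droplet protein induced by low oxygen, at -0.66 ± 0.13 (SE, edgeR adjusted p = 0.000265), and UCP2, a mitochondrial carrier, at -0.65 ± 0.11 (SE, edgeR adjusted p = 2.97e-05). These directions were mixed, as were those of the members.

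**Figure D4:**
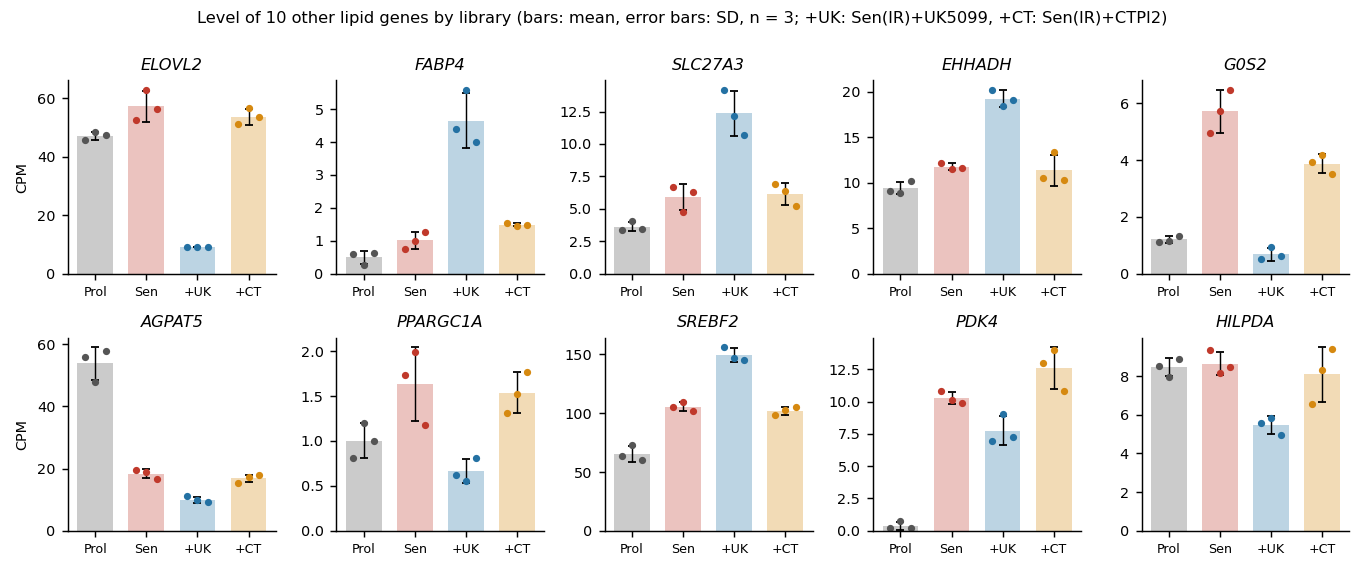
CPM of 10 other lipid genes in each of the 12 libraries (points, libraries; bars, mean; error bars, SD, n = 3; every vertical axis starts at 0 and has its own scale). ELOVL2 and G0S2 are lowest with UK5099, FABP4, SLC27A3 and EHHADH are highest with UK5099, and PDK4 is low in Prol only.

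Other features of the libraries moved with UK5099 beside the lipid genes. The share of counts from mitochondrial genes was 3.81 to 4.23% under UK5099, against 2.78 to 3.21% for Sen(IR), 2.39 to 3.28% under CTPI2 and 2.36 to 2.68% for Prol. The summed level of 10 fibroblast markers was 10890 to 11380 CPM with UK5099, against 20530 to 21110 CPM in Sen(IR), 18140 to 19910 with CTPI2 and 21290 to 25320 in Prol, and 6 of the 10 were called lower with UK5099. Most of that sum was the collagens COL1A1, COL1A2 and COL3A1. Their means were 1600, 3516 and 818.5 CPM with UK5099 and 4710, 7315 and 2750 CPM in Sen(IR). PDGFRB, DCN and LUM overlapped between UK5099 and Sen(IR), and 2 of the 10 estimates lay above 0. Over 5 leukocyte markers the sum was 4.07 to 4.26 CPM with UK5099, against 4.997 to 5.29 in Sen(IR), 5.15 to 6.89 with CTPI2 and 1.03 to 1.36 in Prol. Of these 5 markers, 2 passed the filter and 0 were called with UK5099. PTPRC went the other way, with 7, 6 and 8 counts with UK5099 and 2, 5 and 1 in Sen(IR). The 6 epithelial markers summed to 16.4 to 17.9 CPM with UK5099, against 24.8 to 27.5 in Sen(IR), 23.1 to 26.02 with CTPI2 and 60.2 to 72.6 in Prol. Of these 6 markers, 4 passed the filter, with 2 estimates above 0 and 2 below it, and 1 was called lower with UK5099. The fibroblast, leukocyte and epithelial sums lay lower with UK5099 than in Sen(IR), without overlap. So did that of the 4 endothelial markers, at 0.736 to 1.08 CPM with UK5099, 1.42 to 1.96 in Sen(IR), 1.69 to 2.72 with CTPI2 and 3.64 to 6.22 in Prol. Of these 4 markers, 2 passed the filter and 1 was called lower with UK5099. The sum of the 6 adipocyte markers was higher with UK5099, at 4.96 to 6.26 CPM, than in Sen(IR), at 1.38 to 2.06 CPM, with 2.21 to 2.85 with CTPI2 and 3.05 to 3.28 in Prol. Most of the sum with UK5099 was FABP4, at 3.988 to 5.595 CPM. LIPE, at 2.34 to 2.874 CPM, made up most of the sum in Prol. LIPE was at 0.4446 to 0.5421 CPM with UK5099 and 0.343 to 0.7104 in Sen(IR). The other adipocyte markers lay near the floor. The lowest of the listed markers, KRT5 and CD3E, had at most 1 count in any library. The part of these features in the changes of the members was not tested.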

How the data were processed

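RNA of 12 MRC5 libraries was sequenced in paired reads of 150 bp. Per the labels and the methods, reads were trimmed (Trimmomatic 0.36), mapped to GRCh38 (STAR 2.5.2b) and tallied by gene from unique exon hits (featureCounts of Subread 1.5.2) by the authors. The deposited values are these counts, without normalization, and 0 columns belonged to other samples.

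One edgeR model (version 4.0.16 in R 4.3.3) was fitted to the 12 libraries with no replicate term, by filterByExpr over the groups, TMM scaling, glmQLFit and glmQLFTest. Benjamini-Hochberg adjustment ran over 16251 genes, which held at least 99.9% of the counts of each library. Calls needed an adjusted p below 0.05 and an absolute log2 fold change above 0.5. The SE is the absolute log2 fold change divided by the root of F, and intervals use the t distribution at 95%. The floor is 3 counts. The common dispersion of 0.00374 gives a coefficient of variation of 6.12% between replicates, and the chi-square per gene between replicates was 2.24 to 12.5, where sampling noise alone gives about 1. CPM are counts divided by the TMM-scaled total and put on the usual CPM scale, and lengths are merged exons of GENCODE v44 (GRCh38). Scripts were tested on simulated data.

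Full values are given for the called member with the largest change of each role, direction and comparison and for members called in opposite directions in Sen(IR) and with UK5099 or with both inhibitors; of the other pathway genes, up to 3 called genes per role with UK5099 and 1 in other comparisons, with ACLY and SREBF1 in any case. The members, gene lists, marker lists and motifs were chosen with earlier results of these data known. Alternatives were the DESeq2 Wald test (1.42.0), scaling by RLE or the upper quartile, leaving out the filter, a fit of 2 groups, a replicate block, other limits and leaving out each library. Promoter sequences are from RefSeq (GRCh38.p14).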

Additional observations from a re-analysis of the deposited data

How the results depend on the processing

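The number of members called stayed within 1.5 times of 17 (Sen(IR) against Prol), 12 (UK5099 against Sen(IR)), 0 (CTPI2 against Sen(IR)) and 8 (UK5099 against CTPI2) with DESeq2, RLE or upper-quartile scaling, no filter, a fit of the 2 compared groups and an unadjusted p below 0.05. The fold limit moved it. With no fold limit 29 (18 higher, 11 lower), 19 (11 higher, 8 lower), 0 and 18 (10 higher, 8 lower) were called, and with a limit of 1 on the log2 scale 7 (7 higher, 0 lower), 2 (0 higher, 2 lower), 0 and 2 (0 higher, 2 lower). Leaving out 1 library gave 17 to 18, 10 to 13, 0 to 0 and 7 to 9 members, and 51 to 58, 17 to 21, 0 to 0 and 16 to 19 other pathway genes. Replicate numbers gave no sign of pairing the libraries, with 0 of 18 same-numbered pairs at a correlation of deviations above 0.1 (range -0.051 to 0.042). That correlation runs over all genes tested, so it cannot exclude a pairing seen in few genes. With a replicate block 17, 12, 0 and 9 members and 53, 20, 0 and 19 other pathway genes were called.

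Among members with an unadjusted p below 0.05, no value changed direction in any refit with another tool, scaling, filter, fit or set of libraries. The side of the call stayed the same in 352 of 360 refits in Sen(IR) against Prol, 226 of 240 in UK5099 against Sen(IR), 12 of 12 in CTPI2 against Sen(IR) and 253 of 264 in UK5099 against CTPI2. The exceptions not given beside their genes were gains: ELOVL6 in Sen(IR) in a fit of the 2 groups (-0.50, just past the limit), ACADS in Sen(IR) with upper-quartile scaling (0.59), and against CTPI2 HADH with upper-quartile scaling (0.53), no filter (0.501) and the replicate block (0.50, just past the limit) and DGAT2 in a fit of the 2 groups (-0.53). The cause of these shifts was not tested. Of 152 group levels of members, 37 moved by more than 1 SD between replicates under upper-quartile scaling and 1 under RLE scaling. Depth limits members that lie at a few CPM, among them DGAT2, CD36, ACSL5, ACACB, FABP3 and ACADS, and n = 3 limits the precision of every value.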
